A study of Mus musculus with 6 samples.

Results

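The genes described here are 9 genes known for the granules and cytosol of neutrophils, S100a8, S100a9, Ngp, Camp, Lcn2, Ltf, Mpo, Elane and Prtn3, measured in mouse thymocytes. They were chosen by name, with earlier results of these data known. All 11 probe sets that the platform table gives to exactly 1 of these genes were read, out of 12488 probe sets on the array. RNA of double-negative thymocytes, T cell precursors without CD4 or CD8, was hybridised to 6 single-colour Affymetrix arrays. One group of 3 arrays came from RAG1/Ezh2 double mutant mice and the other group of 3 from mice lacking RAG1 alone, so loss of RAG1 was shared by every array. RAG1 is needed for V(D)J recombination of antigen receptor genes, and Ezh2 is the catalytic subunit of Polycomb repressive complex 2, which methylates histone H3. The labels name no allele, Cre driver, strain, sex, age or pooling of animals. They also do not say whether the arrays of a group came from separate mice, so p-values cover only the spread between these arrays, which may be technical. Sample titles come in 3 styles with 1 array of each group in each, called numbered (replicate 1), Rag (replicate 2) and Thy (replicate 3). Both Rag titles name T cells and lack the letters DN that stand in the other 4 titles. WT stands at the end of the title for replicates 1 and 3 of the RAG1-deficient group, a mark the labels do not explain.

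Neutrophils make their granules in waves during maturation in bone marrow. Azurophil granules come first and hold myeloperoxidase (Mpo) and the serine proteases neutrophil elastase (Elane) and proteinase 3 (Prtn3). Specific granules follow and hold lactoferrin (Ltf), which binds iron, lipocalin 2 (Lcn2), which binds bacterial siderophores, the antimicrobial cathelicidin (Camp) and the cathelicidin-related neutrophilic granule protein (Ngp). S100a8 and S100a9 encode the subunits of calprotectin, a calcium-binding heterodimer that fills the neutrophil cytosol. Factors of the C/EBP family and the ETS factor PU.1 (Spi1) are known regulators of granule genes in myeloid cells. None of the 9 genes is a usual marker of thymocytes.

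The 250 bases before the annotated start were read for all 9 genes from RefSeq (GRCm38.p6), because 6 of the probe sets moved together across the arrays. Several members lie close together: 0 protein-coding genes separate S100a8 from S100a9 on chromosome 3 and Prtn3 from Elane on chromosome 10, and on chromosome 9 there are 8 between Camp and Ngp and 20 between Ngp and Ltf. These windows were searched on both strands for TTGCNNAA, a C/EBP-like run of letters, and for AGGAAGT, an ETS-like run, which do not overlap each other in any of them. The letters were chosen after the sequences had been seen. TTGCNNAA stood before Ngp, S100a9, Lcn2 and Ltf, and in 9.56% of 32851 annotated windows of the same length. AGGAAGT stood before S100a8, Mpo, Elane and Prtn3, and in 7.69% of those windows. Neither was found in the window of Camp. All 3 azurophil genes held the ETS-like letters and none held the C/EBP-like ones. Of the other 6 genes, 4 held the C/EBP-like letters, S100a8 held the ETS-like ones and Camp neither. With letters chosen on these same sequences, this split is a description only. A match is a string of letters and says nothing of binding. Printed 5′ to 3′, with matches in capitals, are 3 windows with the C/EBP-like letters (Ngp, S100a9 and Ltf) and 3 with the ETS-like letters (S100a8, Elane and Mpo). The windows are chr9:110419558-110419807 on the plus strand for Ngp, chr3:90695722-90695971 on the minus strand for S100a9, chr9:111019042-111019291 on the plus strand for Ltf, chr3:90668821-90669070 on the plus strand for S100a8, chr10:79886062-79886311 on the plus strand for Elane and chr11:87793534-87793783 on the plus strand for Mpo.
Ngp: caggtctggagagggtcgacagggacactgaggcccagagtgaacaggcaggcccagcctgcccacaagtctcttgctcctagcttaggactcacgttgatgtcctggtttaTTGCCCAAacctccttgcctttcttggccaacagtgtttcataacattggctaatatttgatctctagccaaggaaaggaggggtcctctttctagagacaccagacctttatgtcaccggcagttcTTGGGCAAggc
S100a9: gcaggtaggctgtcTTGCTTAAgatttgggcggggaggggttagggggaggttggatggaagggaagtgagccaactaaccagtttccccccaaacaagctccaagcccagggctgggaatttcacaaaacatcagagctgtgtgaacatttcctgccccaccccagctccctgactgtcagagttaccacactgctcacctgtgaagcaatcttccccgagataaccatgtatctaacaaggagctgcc
Ltf: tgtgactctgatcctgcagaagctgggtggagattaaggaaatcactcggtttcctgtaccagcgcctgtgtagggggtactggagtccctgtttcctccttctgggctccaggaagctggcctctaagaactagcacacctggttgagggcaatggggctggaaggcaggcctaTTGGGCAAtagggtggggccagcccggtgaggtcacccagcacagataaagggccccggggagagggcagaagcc
S100a8: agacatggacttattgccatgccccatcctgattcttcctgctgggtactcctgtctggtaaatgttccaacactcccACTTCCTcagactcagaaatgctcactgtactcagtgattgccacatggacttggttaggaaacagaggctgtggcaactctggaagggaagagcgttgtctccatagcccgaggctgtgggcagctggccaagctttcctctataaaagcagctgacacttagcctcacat
Elane: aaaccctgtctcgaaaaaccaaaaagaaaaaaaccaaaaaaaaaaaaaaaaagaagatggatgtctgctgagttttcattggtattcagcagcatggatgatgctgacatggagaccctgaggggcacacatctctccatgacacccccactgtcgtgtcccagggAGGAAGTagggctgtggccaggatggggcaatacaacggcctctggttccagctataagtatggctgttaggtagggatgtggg
Mpo: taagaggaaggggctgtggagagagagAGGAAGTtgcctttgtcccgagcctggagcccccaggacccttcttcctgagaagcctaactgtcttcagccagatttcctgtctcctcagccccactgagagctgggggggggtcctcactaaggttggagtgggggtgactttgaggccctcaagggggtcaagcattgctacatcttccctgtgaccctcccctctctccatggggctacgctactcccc

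The labels were checked first on the targeted genes and on T cell markers. Ezh2 stood at scaled intensities of 292, 651 and 724 on the double mutant arrays, against 1435, 1641 and 1789.5 on the RAG1-deficient arrays, without overlap. Rag1 gave signal on every array, with 5394, 5226 and 5171 on the double mutant arrays, against 6933, 7241 and 7264 on the RAG1-deficient arrays, and its second probe set was also on all 6 above the filter level of 86.5, which a probe set had to exceed on at least 3 arrays to be tested. The labels do not say which part of Rag1 was altered and where these probes lie was not known here, so this neither checks nor refutes the loss of RAG1. Cd3g, a chain of the CD3 complex, lay between 15027 and 18448 in the double mutant and between 13676 and 25629 in the RAG1-deficient arrays. Cd3g was thus far above the filter level on every array. RAG1-deficient replicate 1 stood apart, because it alone gave high signals for the co-receptor genes Cd8a (2973) and Cd8b1 (8426), whereas none of the other 5 arrays exceeded 81.3 for Cd8a or 164 for Cd8b1. A probe set's intensity can be compared between arrays but not with that of another probe set. In bulk RNA, more cells of a type and more RNA per cell cannot be told apart.

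RAG1-deficient replicate 2, the Rag array of its group, gave the highest signal of all 6 arrays for S100a8, S100a9, Ngp, Camp and Ltf and for the first of 2 probe sets of Lcn2. On these 6 probe sets double mutant replicates 1 and 3 held the next places, in either order. RAG1-deficient replicate 1 was the lowest array on 5 of the 6, the exception being Ltf. From the highest to the lowest array the signal differed by between 5.12-fold (Ltf) and 47.4-fold (Ngp). Of all 7642 tested probe sets, 14.5% were highest on RAG1-deficient replicate 2, and so were 6 of the 8 tested granule probe sets. Because the genes were chosen with earlier results known, this share and those below only describe these arrays.

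**Figure D1:**
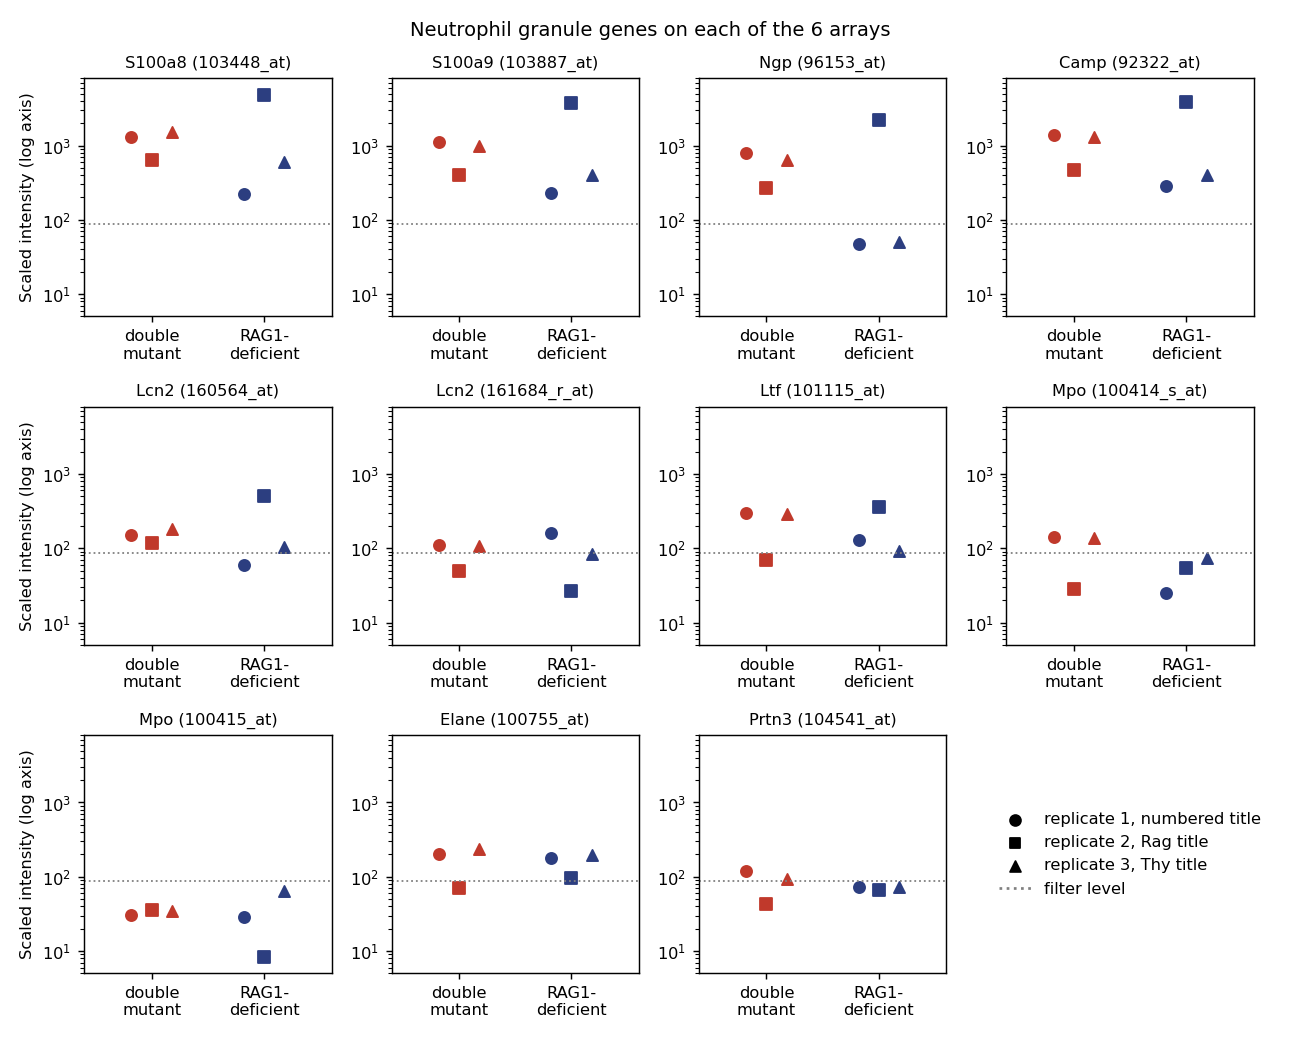
Scaled intensity (log axis) of the 11 probe sets of the 9 genes, with double mutant arrays in red on the left, RAG1-deficient arrays in blue on the right, and marker shape giving the title style. Each point is 1 array and the dotted line is the filter level of 86.5. For S100a8, S100a9, Ngp and Camp the blue square (RAG1-deficient replicate 2) lies above all other points, and the 2 groups overlap in every panel.

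The calprotectin genes were above the filter level on all 6 arrays. S100a8 stood at 1289, 634 and 1524 on double mutant replicates 1, 2 and 3, against 223, 4809 and 601 on RAG1-deficient replicates 1, 2 and 3. S100a9 stood at 1128, 403 and 981 on the double mutant arrays, against 232, 3706 and 407 on the RAG1-deficient arrays. Both genes were 3.16-fold and 3.28-fold higher on RAG1-deficient replicate 2 than on the next array, and the remaining RAG1-deficient arrays lay below double mutant replicates 1 and 3. The groups therefore overlapped, with the RAG1-deficient arrays on both sides of the double mutant ones. S100a8 averaged 1149 ± 461 in the double mutant and 1878 ± 2546 in the RAG1-deficient arrays, and S100a9 averaged 837 ± 383 and 1448 ± 1957 in the same order (SD, n = 3 each). The SD of the RAG1-deficient group exceeded its mean for both genes. The log2 difference, double mutant minus RAG1-deficient, was 0.28 ± 0.93 (SE) for S100a8 and 0.09 ± 0.89 (SE) for S100a9. It is positive although the RAG1-deficient mean is the larger, since 1 high array weighs less on a log scale.

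The specific granule genes Camp and Ngp followed the same order of arrays. Camp stood at 1403, 465 and 1305 on the double mutant arrays, against 287, 3912 and 407 on the RAG1-deficient arrays. Ngp stood at 790.0, 269 and 634 on the double mutant arrays, against 47.2, 2237 and 50.3 on the RAG1-deficient arrays. For both genes RAG1-deficient replicate 2 was the highest array, by 2.79-fold for Camp and 2.83-fold for Ngp over the next, and RAG1-deficient replicates 1 and 3 were the lowest. Ngp differed from S100a8, S100a9 and Camp at the low end. S100a8, S100a9 and Camp had similar signals on double mutant replicate 2 and RAG1-deficient replicate 3 (634 and 601, 403 and 407, 465 and 407), whereas Ngp had 269 and 50.3. Ngp was above the filter level of 86.5 on 4 arrays, all 3 of the double mutant and 1 of the RAG1-deficient group. The log2 difference was 0.27 ± 0.88 (SE) for Camp and 1.25 ± 1.198 (SE) for Ngp.

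Lcn2, by 1 of its probe sets, and Ltf repeated the high signal of RAG1-deficient replicate 2. The first probe set of Lcn2 stood at 153, 116 and 184 on the double mutant arrays, against 60.3, 506 and 103 on the RAG1-deficient arrays. This again put RAG1-deficient replicate 2 on top, by 2.75-fold, and replicate 1 of that group at the bottom. The second probe set of Lcn2 ran the other way, with 112, 49.0 and 106 on the double mutant arrays, against 163, 26.5 and 83.4 on the RAG1-deficient arrays. It was lowest on the array where the first was highest, so the 2 probe sets of this gene disagree. Ltf stood at 294, 70.0 and 286 on the double mutant arrays, against 130, 359 and 92.5 on the RAG1-deficient arrays. Its lead on RAG1-deficient replicate 2 was 1.22-fold. The log2 differences were -0.04 ± 0.63 (SE) and 0.12 ± 0.57 (SE) for the probe sets of Lcn2 and 0.14 ± 0.59 (SE) for Ltf.

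The azurophil genes did not share this order. Elane stood at 201, 69.5 and 240 on the double mutant arrays, against 180, 96.4 and 197 on the RAG1-deficient arrays. Its lowest values were those of the Rag arrays in both groups, so the array that was highest for S100a8 was next to lowest for Elane. The first probe set of Mpo, which can detect related transcripts, gave 141, 28.7 and 136 on the double mutant arrays, against 25.0, 54.7 and 73.4 on the RAG1-deficient arrays. The second lay between 30.4 and 35.4 in the double mutant and between 8.3 and 64.0 in the RAG1-deficient arrays. Prtn3 gave 118, 43.3 and 92.7 on the double mutant arrays, against 72.2, 65.9 and 73.2 on the RAG1-deficient arrays. Both probe sets of Mpo and the one of Prtn3 were above 86.5 on fewer than 3 of the 6 arrays and were not tested. Just outside the filter lay the first probe set of Mpo and Prtn3 with 2 arrays above it, and just inside lay the second probe set of Lcn2 with 3. Elane was the azurophil gene that was tested, with a log2 difference of 0.01 ± 0.46 (SE).

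No granule gene passed the comparison of the groups. Of the 8 tested probe sets (7 genes), 0 passed as higher and 0 as lower in the unpaired limma fit (unadjusted p between 0.326 and 0.980, lowest adjusted p = 0.999944). Over all tested probe sets this fit called 0.0393% higher and 0% lower, while 2.29% were higher and 0.903% lower by an unadjusted p below 0.05, where the granule genes again had 0. In the paired limma fit, which adds a term for title style, 0 of the 8 passed (adjusted p between 0.688 and 0.992), against 0.563% of all tested probe sets higher and 0.105% lower. The exact two-sided permutation p lay between 0.3 and 1 over all 11 probe sets, where 0.1 is the smallest that 3 arrays against 3 allow. None of the 8 separated the groups without overlap, and 7.13% of all tested probe sets did. The median log2 difference was 0.13 over the 8, and -0.0021 over all tested probe sets. Standard errors near 0.9 for S100a8, S100a9 and Camp mean that differences of several fold in either direction would not have been detectable with these arrays.

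Within title-style pairs the direction was opposite in the Rag pair. S100a8 was 5.77-fold higher in the double mutant in the numbered pair and 2.53-fold higher in the Thy pair, while in the Rag pair the RAG1-deficient array was 7.58-fold higher. Ngp was 16.7-fold and 12.6-fold higher in the double mutant in the numbered and Thy pairs, and the RAG1-deficient array was 8.33-fold higher in the Rag pair. On the log2 scale the 6 probe sets that shared the order of arrays differed by between 1.05 (Ltf) and 3.53 (Ngp) in the numbered pair, between -3.13 (S100a9) and -1.93 (Lcn2) in the Rag pair, and between 0.72 (Lcn2) and 3.16 (Ngp) in the Thy pair. Elane had the same signs at a small size, with 0.15, -0.37 and 0.26 in the numbered, Rag and Thy pairs. So did the untested first probe set of Mpo (1.77, -0.59 and 0.72) and Prtn3 (0.57, -0.42 and 0.27). The second probe set of Mpo had other signs, with 0.06, 0.90 and -0.61. An order of signs above, below and above 0 was shown by 7 of the 8 tested granule probe sets and by 8.58% of all tested probe sets. By more than 1 on the log2 scale in each pair, a limit set after the values were seen, it was shown by S100a8, S100a9, Camp, Ngp and Ltf and by 0.0785% of all tested probe sets, 6 in number. The sixth was Wfdc21, a gene of the WAP domain family. Each style holds 1 array per group, so whether the difference between the groups depends on the title style could not be tested.

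**Figure D2:**
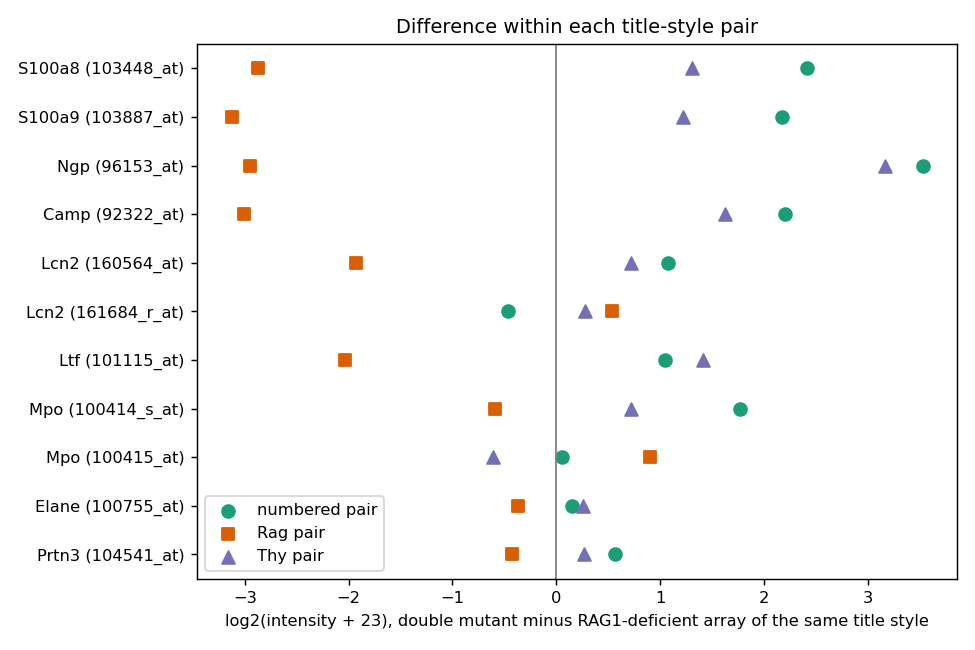
Difference in log2(intensity + 23), double mutant minus RAG1-deficient, within each title-style pair (circle numbered, square Rag, triangle Thy) for the 11 probe sets of the 9 genes. For S100a8, S100a9, Ngp, Camp, Ltf and the first probe set of Lcn2 the Rag pair lies between -3.13 and -1.93 while the other pairs lie above 0.

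**Figure D3:**
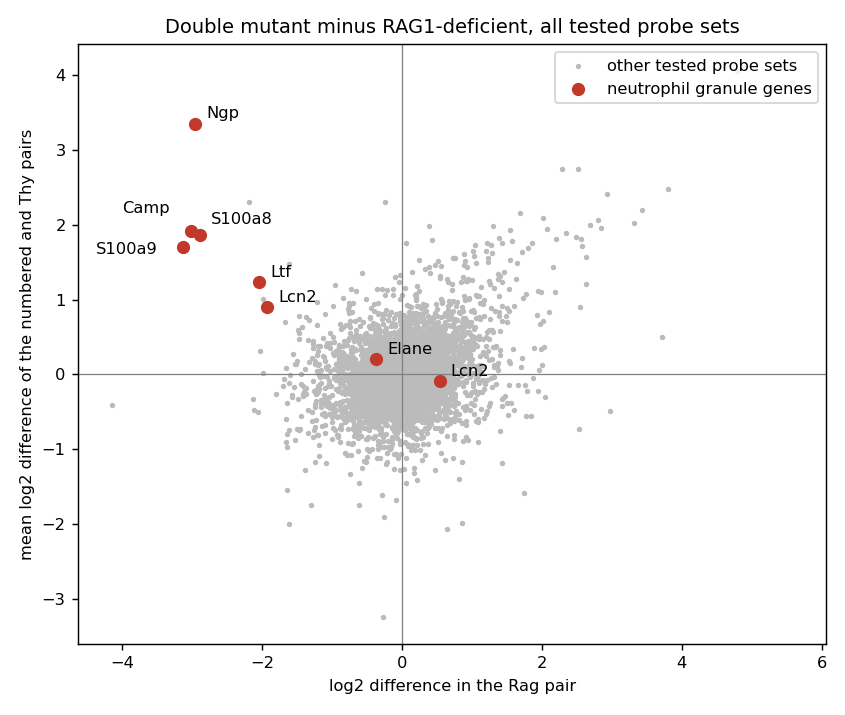
Log2 difference, double mutant minus RAG1-deficient, in the Rag pair (x axis) against the mean of the numbered and Thy pairs (y axis) for all 7642 tested probe sets (grey) and the 8 tested granule probe sets (red). S100a8, S100a9, Camp and Ngp lie at the upper left edge, while Elane and the second probe set of Lcn2 lie near the centre.

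Leaving out arrays moved the group difference of S100a8, S100a9 and Camp across 0, while that of Ngp stayed above it. Without RAG1-deficient replicate 2 the unpaired log2 difference was 1.49 for S100a8, 1.25 for S100a9, 1.42 for Camp and 2.91 for Ngp. Ngp then had an adjusted p of 0.147 in limma, and the other 7 probe sets stood at 0.996. Without RAG1-deficient replicate 1 the difference was -0.66 for S100a8, -0.68 for S100a9 and -0.42 for Camp, and it was 0.40 for Ngp. When the Rag pair was left out of the paired fit, 5 of the 8 probe sets passed as higher in the double mutant, where 1.66% of all tested probe sets passed as higher and 0.837% as lower. These were Ngp with a log2 difference of 3.35 ± 0.32 (SE, limma adjusted p = 6.32e-17), Camp with 1.91 ± 0.24 (1.99e-10), S100a8 with 1.86 ± 0.24 (7.59e-10), S100a9 with 1.70 ± 0.25 (4.07e-08) and Ltf with 1.23 ± 0.33 (0.0181). Lcn2 did not pass, at 0.90 ± 0.42 (adjusted p = 0.369) for its first probe set. That fit holds 2 arrays per group and takes its spread almost wholly from pooling over probe sets. Its SE of 0.32 for Ngp stands against 1.10 in the paired fit of all arrays, so these adjusted p-values do not carry the spread that these genes showed over the 6 arrays. With the numbered or the Thy pair left out instead, 0 of the 8 passed.

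**Figure D4:**
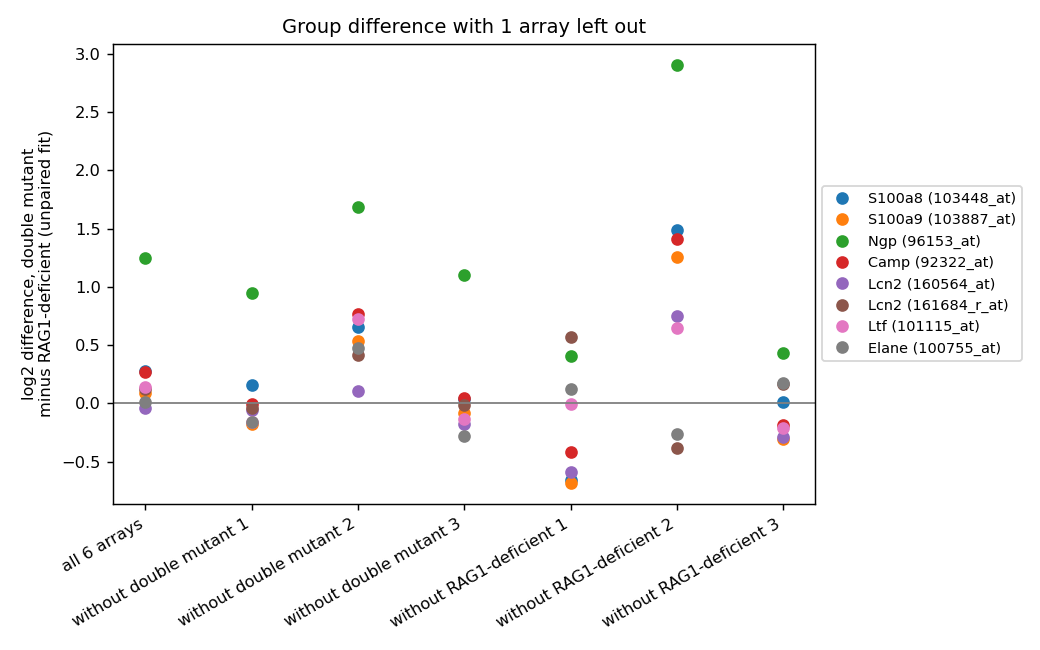
Log2 difference, double mutant minus RAG1-deficient, of the 8 tested granule probe sets in the unpaired fit of all 6 arrays and with each array left out in turn. S100a8, S100a9 and Camp lie between 1.25 and 1.49 without RAG1-deficient replicate 2 and between -0.68 and -0.42 without RAG1-deficient replicate 1.

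Title style was tested on the same probe sets. The paired fit gave S100a8, S100a9, Camp and Ngp SEs between 0.846 and 1.10, so a style effect on them could have been missed. With 8 granule probe sets, their count cannot be told from the share over all probe sets. In the moderated F test of the style terms, 30.2% of all tested probe sets passed, and 1 of the 8 granule probe sets did. This was Elane (limma adjusted p = 0.0324), which was lowest on the Rag arrays. The second probe set of Lcn2 had an adjusted p of 0.0606, and those of the other 6 lay between 0.341 and 0.950.

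RAG1-deficient replicate 2 exceeded every other array by more than 2-fold on 12 tested probe sets, 0.157% of all, and 5 of the 12 were granule genes: S100a9, S100a8, Ngp, Camp and Lcn2. The limit was set after the values had been seen. The other 7 included Chil3, the chitinase-like protein Ym1 of mouse neutrophils and macrophages, with 341, 188 and 239.5 on the double mutant arrays, against 139, 817 and 122 on the RAG1-deficient arrays. The chemokine gene Ccl5 stood at 1681, 2727 and 1599 on the double mutant arrays, against 1602, 7619.6 and 867 on the RAG1-deficient arrays. Ccl8, another chemokine gene, the leukocyte gene Lst1, Eps15l1, Hsd11b1 and Idnk completed the 12.

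Genes with the most similar course over the 6 arrays were ranked by Pearson's r with the mean centred log2 value of the 8 granule probe sets, among 1874 tested probe sets of other named genes with an SD of at least 0.5. The 8 genes at the top were Wfdc21 (r = 0.976), Chil3 (0.922), the annexin gene Anxa1 (0.877), the NKG2D receptor gene Klrk1 (0.816), the peptidoglycan recognition gene Pglyrp1 (0.780), the chemokine gene Xcl1 (0.770), the glutathione transferase gene Mgst1 (0.767) and the homeobox gene Pitx3 (0.750). With only 6 arrays, and the best of many probe sets picked, these values describe likeness only. Wfdc21 stood at 110.1, 40 and 132 on the double mutant arrays, against 31.8, 170.4 and 25.9 on the RAG1-deficient arrays, and was highest on RAG1-deficient replicate 2. Pglyrp1, a protein of specific granules, was also highest there by both of its probe sets. The probe set ranked here stood at 91.3, 102 and 119 on the double mutant arrays, against 20.1, 180.5 and 76.9 on the RAG1-deficient arrays. The other stood at 425 on RAG1-deficient replicate 2, and its next array was RAG1-deficient replicate 3, at 227.

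Other genes of neutrophil granules gave a mixed picture. Of 8 further azurophil genes, 6 were on the array and 4 were tested, with 0 passing in the unpaired fit. In the paired limma fit Cst7, the cystatin F gene that is also expressed in killer lymphocytes, rose with a log2 difference of 1.40 (adjusted p = 0.0294), and 0 fell. It stood at 665, 701 and 603 on the double mutant arrays, against 173, 330.1 and 223 on the RAG1-deficient arrays, without overlap and in an order unlike that of S100a8. Lyz2, lysozyme of neutrophils and macrophages, was highest on RAG1-deficient replicate 2, at 2719, where no other array exceeded 1423. Ctsc and Cd63 differed between title styles. The tested probe set of Ctsc stood at 503 on RAG1-deficient replicate 2, where only double mutant replicate 2 was lower. Ctsg, which encodes the azurophil protease cathepsin G, lay at 41.0, 55.4 and 87.3 in the double mutant and at 14.7, 15.6 and 19.6 in the RAG1-deficient arrays and was not tested. The median log2 difference of the 4 tested was 0.41.

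Of 12 further genes of specific and gelatinase granules, 7 were on the array, and 8 probe sets of 5 genes were tested. None passed in the unpaired, paired or title-style test, and the median log2 difference was -0.04. Among those with the smallest p, Slpi, a protease inhibitor, had -0.59 ± 0.39 (SE) by 1 of 3 tested probe sets, the metalloprotease gene Adam8 had 0.30 ± 0.28 (SE), and Pglyrp1 had -0.35 ± 0.35 (SE) by 1 probe set and 0.40 ± 0.57 (SE) by the other. The remaining tested probe sets of Slpi had -0.18 ± 0.23 (SE) and 0.46 ± 0.63 (SE), so they differed in sign. The last of these was lowest on RAG1-deficient replicate 2, at 28.0, where no other array was below 138. Hp, also of this list, was highest on RAG1-deficient replicate 1, at 431. The collagenase gene Mmp8 did not exceed 16.3 in the double mutant and 21.0 in the RAG1-deficient arrays.

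Surface and oxidase genes of mature neutrophils varied in their order of arrays. Of 19 listed, 12 were on the array and 6 probe sets of 5 genes were tested, with 0 passing in the unpaired or paired fit and a median log2 difference of -0.27. Csf3r, the G-CSF receptor gene, stood at 414, 65.5 and 259 on the double mutant arrays, against 434, 59.7 and 411 on the RAG1-deficient arrays. It was thus lowest on the array where the calprotectin genes were highest. Others were highest on that array, RAG1-deficient replicate 2: 1 probe set each of Cyba and of the decoy receptor gene Il1r2, Ly6g and the cytokine gene Il1b. The other probe set of Cyba was highest on RAG1-deficient replicate 1, at 4813. This probe set of Il1r2 stood at 74.3, 56.9 and 62.3 on the double mutant arrays, against 30.3, 87.3 and 17.7 on the RAG1-deficient arrays. RAG1-deficient replicate 2 was on top and double mutant replicates 1 and 3 came next, as for S100a9, but only RAG1-deficient replicate 2 was above the filter level. The other probe set of Il1r2 had 89.4, 31.9 and 78.2, against 155.4, 82.9 and 74.1. It was highest on RAG1-deficient replicate 1, so the probe sets of Il1r2 disagree. Both probe sets of Il1r2, Ly6g and Il1b did not pass the filter and were not tested. The title-style test passed for Csf3r, for the oxidase genes Cybb and Ncf4 and for both probe sets of Cyba. Ly6g lay at 49.1, 46.1 and 67.7 on the double mutant arrays, against 56.4, 73.0 and 18.4 on the RAG1-deficient arrays. The integrin gene Itgam lay between 10.4 and 32.7 in the double mutant and between 12.0 and 17.1 in the RAG1-deficient arrays, and the chemokine receptor gene Cxcr2 between 4.2 and 33.0 and between 2.7 and 50.9, in the same order of groups. These 3 defining surface markers were under the filter on every array.

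**Figure D5:**
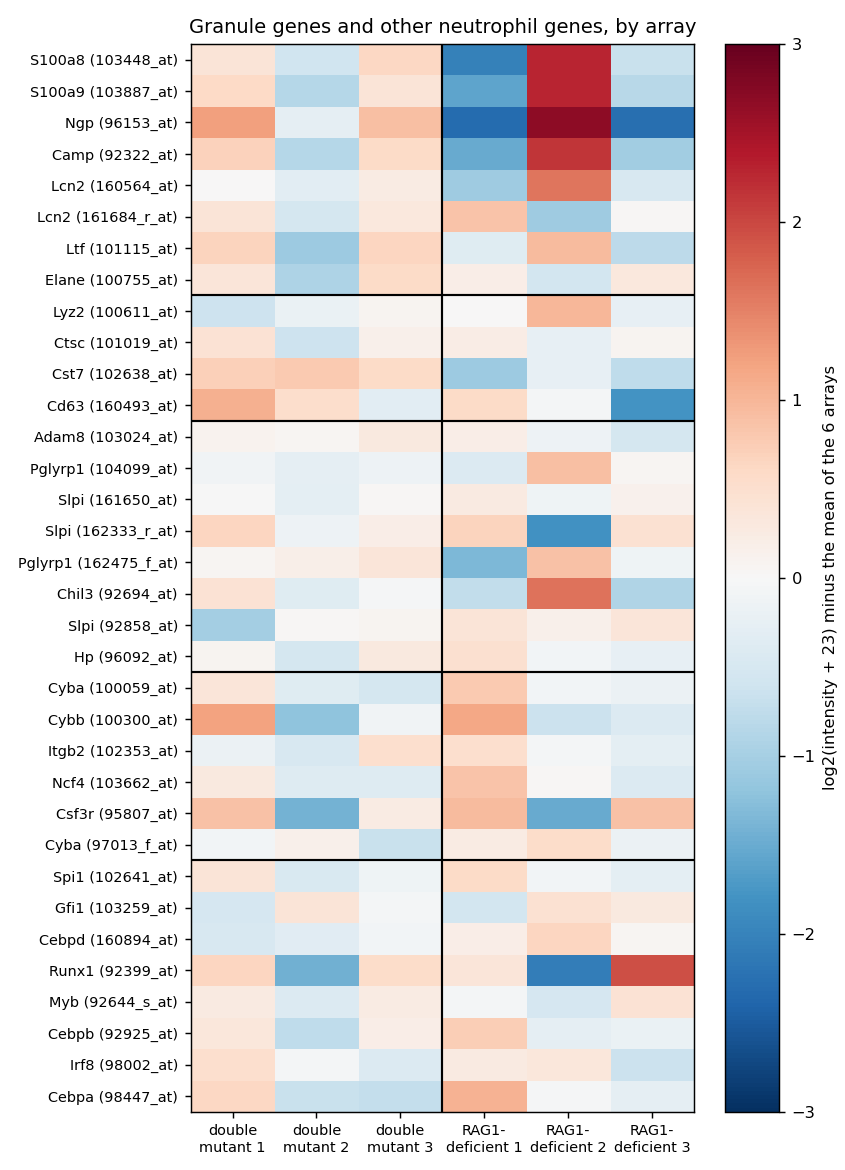
Log2(intensity + 23) of each tested probe set minus its mean over the 6 arrays, for granule genes, further azurophil genes, further specific and gelatinase genes, surface and oxidase genes, and transcription factors, from top to bottom between black lines. Columns are the 3 double mutant and then the 3 RAG1-deficient arrays. The column of RAG1-deficient replicate 2 is red for S100a8, S100a9, Ngp, Camp, the first probe set of Lcn2, Ltf, Lyz2, Pglyrp1 and Chil3. It is blue for the second probe set of Lcn2, Elane, 1 probe set of Slpi, Csf3r and Runx1, among others.

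The factors that act on granule genes in myeloid cells did not pass between the groups, where few probe sets of any kind did. Of 10 listed, 9 were on the array and 8 were tested, with 0 calls in the unpaired and paired fits and a median log2 difference of -0.15. Cebpd, a C/EBP factor, had the smallest p, with a log2 difference of -0.61 ± 0.36 (SE), followed by Cebpa with -0.50 ± 0.46 (SE), Cebpb with -0.17 ± 0.40 (SE) and Spi1 with -0.14 ± 0.35 (SE). Spi1 stood at 265, 137 and 180.1 on the double mutant arrays, against 308, 185 and 158 on the RAG1-deficient arrays, and its highest value was on the array with the least S100a8. Cebpd stood at 67.2, 76.1 and 95.8 on the double mutant arrays, against 121, 175 and 108 on the RAG1-deficient arrays. The groups did not overlap, which held for 7.13% of all tested probe sets. Cebpd was highest on the array with the most S100a8, RAG1-deficient replicate 2. Cebpa (543) and Cebpb (399) were instead highest on RAG1-deficient replicate 1, the array with the least S100a8, against 246 and 188 on RAG1-deficient replicate 2. Gfi1, a repressor needed for neutrophil maturation, was highest on RAG1-deficient replicate 2, at 2187, though close to the 2101 of double mutant replicate 2. Cebpa, Gfi1, Irf8, Myb and Runx1 passed the title-style test, as did 30.2% of all tested probe sets.

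The rest of the S100 family, small calcium-binding proteins of which most are encoded near S100a8 and S100a9, did not pass between the groups. Of 12 listed, 10 were on the array and 10 probe sets of 7 genes were tested, with 0 calls in either fit. Their log2 differences lay between -0.56 and 0.14, with a median of -0.25. S100a6, the member with the smallest p, stood at 3353, 1230.2 and 1776 on the double mutant arrays, against 3387, 3367 and 2096 on the RAG1-deficient arrays. Its Rag pair differed by -1.44, in the direction of S100a8. Its numbered pair differed by -0.014 and its Thy pair by -0.24, where S100a8 was above 0. S100a14 had a log2 difference of -0.44 ± 0.31 (SE). S100a1 and S100a13 passed the title-style test.

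Markers of other cell types moved over the arrays as well, and their part in the granule result was not tested. The summed intensity of the 11 granule probe sets was 5660, 2183 and 5521 on the double mutant arrays, against 1448, 15781 and 2151 on the RAG1-deficient arrays. That of 13 monocyte and macrophage genes (20 probe sets) was 12016, 4417 and 3224 on the double mutant and 11492, 8150 and 3068 on the RAG1-deficient arrays, highest on the numbered arrays and not on RAG1-deficient replicate 2. Erythroid markers summed to between 1955 and 31449 in the double mutant and between 992 and 31224 in the RAG1-deficient arrays, with the lowest sum of each group on its Thy array. Their highest sums were on double mutant replicate 1 and on RAG1-deficient replicate 2, and the globin gene Hba-a1 was highest of all 6 arrays on RAG1-deficient replicate 2, at 30031. Hba-a1 made up most of these highest sums, so they say little of the other erythroid genes. Klf1 (202), Epor (192) and Car2 (594) were instead highest of all 6 arrays on double mutant replicate 3, a Thy array. Antigen-presenting cell markers lay between 4337 and 19342 and between 4488 and 28313 in the same order of groups, and B cell markers between 4195 and 5066 and between 4693 and 6999.8, both highest on RAG1-deficient replicate 1. Eosinophil, basophil and mast cell markers summed to between 1574 and 3494 in the double mutant and between 783 and 1048 in the RAG1-deficient arrays, and Cpa3, a mast cell protease gene, rose in the paired fit. Most of each double mutant sum came from Cpa3. Of the 3 tested probe sets of this list, the 2 of Cpa3 had log2 differences above 0, and that of Cma1 had -0.41. Thymic epithelial and stromal markers lay between 2158 and 2915 and between 1865 and 2822, with Pdgfrb higher in the paired fit. Early T cell markers lay between 60185 and 85602 and between 67423 and 100086, highest of all 6 arrays on RAG1-deficient replicate 2. Double-positive stage markers lay between 79.1 and 429.6 and between 232 and 12098, highest on RAG1-deficient replicate 1. No value of any listed marker was 0, and 0 markers of these 8 lists passed in the unpaired fit.

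In the title-style test the markers that passed were C1qa, C1qb, C1qc, Cd68, Csf1r, Fcgr1 and Mpeg1 of macrophages, Cd74, H2-Aa, H2-Ab1 and H2-Eb1 of antigen-presenting cells, Alas2 and Hba-a1 of red cells, Cpa3, Cd79b, Krt8, Cd4, and Cd3d, Cd3e, Il2ra, Notch1 and Thy1 of early T cells. RNA quality was read as the ratio of the 3′ to the 5′ control probe set. The ratio for Gapdh was 0.928, 1.14 and 0.836 on the double mutant arrays, against 1.04, 1.35 and 0.889 on the RAG1-deficient arrays, highest on RAG1-deficient replicate 2. For Actb it was 1.99, 2.77 and 1.24 on the double mutant and 1.91, 2.26 and 1.40 on the RAG1-deficient arrays, highest on double mutant replicate 2, where the granule signals were low. Whether RNA quality bears on the granule result was not tested.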

How the data were processed

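The authors deposited linear intensity values for 12488 probe sets on 6 arrays; the software behind them is not given in the sources used here. The 2%-trimmed mean of each array was between 500.293 and 500.37, so arrays had been scaled to a common mean before deposit, and a shift of most transcripts together cannot be seen. The lowest value was 0.1. Groups came from the sample descriptions. The 66 control probe sets were left out. The platform table named 1 gene for 10833 of the other 12422 probe sets, and symbols were checked by Entrez number in RefSeq (GRCm38.p6), which changed 0.

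Values were tested as log2(intensity + 23), 23 being the 20th percentile of all values, for the 7642 probe sets above 86.5 (the 40th percentile) on at least 3 arrays, with limma 3.58.1 in R 4.3.3 (lmFit, eBayes with trend, two-sided, Benjamini-Hochberg over all tested probe sets, threshold 0.05). A log2 difference on this scale understates that of dim probe sets. The unpaired fit has group alone. The paired fit adds title style, and its style terms gave the title-style test. Arrays of the same style deviated together from their group means (r = 0.570, 0.736 and 0.602 for the numbered, Rag and Thy styles, against a limit of 0.1), so the styles were taken to pair the arrays, as read from titles and data, not from a stated batch. The exact permutation test compared group means. Calls of the unpaired fit were tested on simulated data, drawn without the shared deviation of title styles. Calls of the paired fits were not tested in this way. The number of arrays limits the precision.

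Alternatives were a pseudocount of 1 or 100, no filter, quantile scaling, the title style block, and leaving out each array or pair. By rule the text names the 9 genes, listed genes that passed a test, up to 4 tested genes with the smallest p in each neutrophil list, and the 8 genes most like the members. It also names genes outside this rule. Among them are the genes of the 12 probe sets more than 2-fold higher on RAG1-deficient replicate 2, untested listed genes, and listed genes named for their highest array. These were added after the values had been seen. Members and gene lists were chosen with earlier results of these data known. Python 3.11.15 and matplotlib 3.10.9 made the figures.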

Additional observations from a re-analysis of the deposited data

Results flagged for a closer look

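In the Rag pair 6 granule probe sets differed in the direction opposite to the numbered and Thy pairs: the log2 difference, double mutant minus RAG1-deficient, was -2.88 for S100a8, -3.13 for S100a9, -2.95 for Ngp, -3.01 for Camp, -1.93 for the first probe set of Lcn2 and -2.04 for Ltf. With 1 array of each group per title style, this difference between pairs was not tested. Groups of 3 arrays are too small for a check of single outlying arrays.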

How the results depend on the processing

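With 3 arrays per group and signals near or under the filter level for Mpo, Prtn3 and the second probe set of Lcn2, the arrays limit what could be seen. The unpaired count of 3 probe sets higher and 0 lower became 43 and 8 with title style as a replicate block and 5 higher with quantile scaling. The replicate block changed no granule call. With the block and without the numbered pair 12 were higher and 2 lower, and without the Rag pair 127 and 64, among them 5 granule probe sets higher. Leaving out single arrays gave between 0 and 6 higher. The title-style call of Elane ended without the filter and with quantile scaling (0 granule probe sets each). A pseudocount of 1 turned the log2 difference to 0.015 for the first probe set of Lcn2 and to -0.0063 for Elane, and quantile scaling turned that of Lcn2 to 0.094, all without a call. The causes were not tested.

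Leaving out single arrays, the log2 difference ranged from -0.66 to 1.49 for S100a8, from -0.68 to 1.25 for S100a9, from -0.42 to 1.42 for Camp, from -0.59 to 0.75 and from -0.38 to 0.57 for the first and second probe sets of Lcn2, from -0.21 to 0.73 for Ltf and from -0.28 to 0.48 for Elane. Ngp stayed above 0 in each setting tried. With the replicate block and without the numbered pair, the values that turned were -0.78 for S100a8, -0.95 for S100a9, -0.69 for Camp, -0.31 for Ltf and -0.056 for Elane. Without the Thy pair they were -0.23 for S100a8, -0.48 for S100a9, -0.41 for Camp, -0.49 for Ltf and -0.11 for Elane, and without the Rag pair 0.90 and -0.091 for the probe sets of Lcn2.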
